A study of Mus musculus with 20 samples.

Results

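The data cover 8 cytosolic sulfotransferase genes and 1 gene that makes their sulfate donor, each measured by RNA sequencing in 20 mouse livers. The 9 genes were Sult1a1, Sult1b1, Sult1c2, Sult1d1, Sult1e1, Sult2a8, Sult3a1, Sult5a1 and Papss2, matched by symbol among the 55487 genes of the count table. They were chosen by name with results of these data known, because Sult1e1 was seen to rise on high-fat diet (HFD) with a large spread between mice. Levels on HFD against chow are therefore given for these genes as a description, with no p, and tests are given for the comparisons that did not enter the choice.

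Sulfotransferases move a sulfate group from the donor PAPS onto hormones, bile acids and foreign compounds, which makes them more soluble in water and usually ends their activity. PAPS is built from inorganic sulfate and ATP by the PAPS synthases, of which Papss2 is the main form in liver. The liver holds several such enzymes, and many of them differ between male and female mice and respond to nuclear receptors.

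All mice were C57BL/6J females taken at 28 weeks of age. Chow was fed to 5 mice (labelled Chow), and the others received HFD from 8 weeks of age and then an HFD in which 50% of the protein came from salmon fishmeal (Fishmeal, 5 mice), salmon filet (Salmon, 6 mice) or beef (Beef, 4 mice) for the last 10 weeks. Each library was made from the liver of 1 mouse, so p-values measure the spread between mice. The chow and the HFDs differed in more than their fat, and the effects of fat, protein source and the other ingredients against chow cannot be told apart.

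Mouse 31 was labelled Salmon, but its column in the count table carried the name Beef. It was kept as labelled, and the log2 fold changes that involve salmon filet or beef were also computed with mouse 31 counted as Beef and without it, and the relations with Sult1e1 and with the clock genes with it counted as Beef. The spread within groups and the genes nearest to Sult1e1 were computed only as labelled. Counts assigned to genes ranged from 42526234 to 70266136 per library. The share of counts in protein coding genes was 93.2% to 95.6%, except in beef mouse 35 with 84.3%. The defining genes of hepatocytes summed to between 102000 and 125000 counts per 1e+06 counts (CPM) in chow and 92000 to 122000 in HFD, so all libraries matched their tissue label.

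A group of 3 of the genes lies side by side on chromosome 5 (GRCm38). Sult1b1, which sulfates thyroid hormones and catechols, spans chr5:87513339-87538195, Sult1d1, which sulfates catecholamines, spans chr5:87554645-87569027, and Sult1e1, which inactivates estrogens, spans chr5:87575969-87591594. All 3 are read from the minus strand, and no other protein coding gene lies between them within these 78256 bases. Among the 9 genes Sult1e1 had the largest log2 fold change between HFD and chow (3.85), beside 0.02 for Sult1b1 and 0.13 for Sult1d1. Sult3a1, which sulfates amines, lies at chr10:33857721-33879532 on the plus strand and had the lowest level on HFD relative to chow among the 9 genes. For these reasons the 250 bases before the RefSeq start of Sult1e1, Sult1b1 and Sult3a1 are shown (GRCm38.p6, gene strand, 5′ to 3′), at chr5:87591612-87591861, chr5:87538196-87538445 and chr10:33857472-33857721. Capitals mark the matches to the motifs searched.
Sult1e1: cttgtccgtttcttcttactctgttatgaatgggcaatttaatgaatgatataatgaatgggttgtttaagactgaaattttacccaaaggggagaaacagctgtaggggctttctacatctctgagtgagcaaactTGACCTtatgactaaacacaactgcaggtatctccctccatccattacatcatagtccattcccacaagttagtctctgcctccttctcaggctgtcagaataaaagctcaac
Sult1b1: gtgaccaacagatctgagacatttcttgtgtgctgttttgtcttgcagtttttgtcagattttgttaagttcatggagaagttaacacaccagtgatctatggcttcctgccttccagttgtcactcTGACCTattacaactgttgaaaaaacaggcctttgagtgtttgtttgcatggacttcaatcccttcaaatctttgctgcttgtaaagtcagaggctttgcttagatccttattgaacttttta
Sult3a1: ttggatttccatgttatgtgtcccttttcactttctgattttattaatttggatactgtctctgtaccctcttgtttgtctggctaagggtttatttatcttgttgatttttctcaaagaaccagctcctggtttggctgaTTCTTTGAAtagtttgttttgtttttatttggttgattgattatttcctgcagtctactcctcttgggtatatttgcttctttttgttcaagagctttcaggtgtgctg

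The motifs were the nuclear receptor core AGGTCA, the STAT5 motif TTCNNNGAA, the E-box CACGTG, the D-box TTATGTAA and the TATA box TATAAA, each on both strands. Sult1e1 held the reverse of the nuclear receptor core 113 to 108 bases before its start, and Sult1b1 held the same letters 123 to 118 bases before its start. Sult3a1 held a STAT5 match of 9 bases that begins 109 bases before its start, and no matches of different motifs overlapped. Among 32851 RefSeq windows of this length, 14.02% held the nuclear receptor core, 7.02% the STAT5 motif, 6.02% the E-box, 0.82% the D-box and 12.37% the TATA box. All 9 genes had a RefSeq window. The only other match was a TATA box for Sult2a8 223 to 218 bases before its RefSeq start, which lies inside the annotated gene. The whole Sult1c2 window also lies inside the annotated gene. For Sult1c2 and Papss2 the bases after the RefSeq start were not found near the start of an annotated transcript. The lack of matches in these 2 windows therefore says little about their promoters. All matches describe letters and not binding.

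To compare the genes with each other, TPM values, which divide by gene length and sum to 1e+06 per library, were used. In chow, Sult1a1, which sulfates phenols, was first with a median of 845 TPM (782 to 1000), followed by Sult3a1 with 504 (413 to 960). Sult2a8, the bile acid sulfotransferase of mouse liver, had a median of 387 (310 to 417) and Papss2 one of 352 (292 to 477). Sult1d1 followed with 167 (138 to 197) and Sult1b1 with 24.0 (19.8 to 29.3). Sult5a1, a little studied member of the family, had 10.7 TPM (6.80 to 19.5) and Sult1c2, which sulfates phenols, 10.6 (8.15 to 17.9). Sult1e1 was last with 0.137 TPM (0.0728 to 0.660). The chow ranges overlapped between Sult1a1 and Sult3a1, between Sult3a1 and Sult2a8, between Sult2a8 and Papss2, and between Sult5a1 and Sult1c2, and these neighbours in the order cannot be separated by their ranges.

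In the 15 HFD mice the order was partly different. Sult1a1 was still first with a median of 818 TPM, and Sult2a8 (344) and Papss2 (272) came next. Sult1d1 (184) stood above Sult3a1 (145), although it was the higher of the 2 in only 9 of 15 mice. Sult1b1 (24.1) and Sult1c2 (22.2) were now neighbours with overlapping ranges, and Sult5a1 (4.70) and Sult1e1 (2.17) were at the bottom, also with overlapping ranges. Summed over the 8 chosen sulfotransferases, the level was 1790 to 2350 TPM in chow and 1340 to 1720 TPM in HFD. This sum is not the total of the liver, because other cytosolic sulfotransferases are left out. Of those, Sult2a2 had a median of 557 TPM in chow and 747 in HFD, and Sult2a1 had 361 and 394. Sult3a2, also left out, had 39.5 and 12.1. The median share of Sult3a1 in the sum over the 8 genes was 25.6% in chow and 9.08% in HFD, while that of Sult1a1 was 44.1% and 53.0%.

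**Figure D1:**
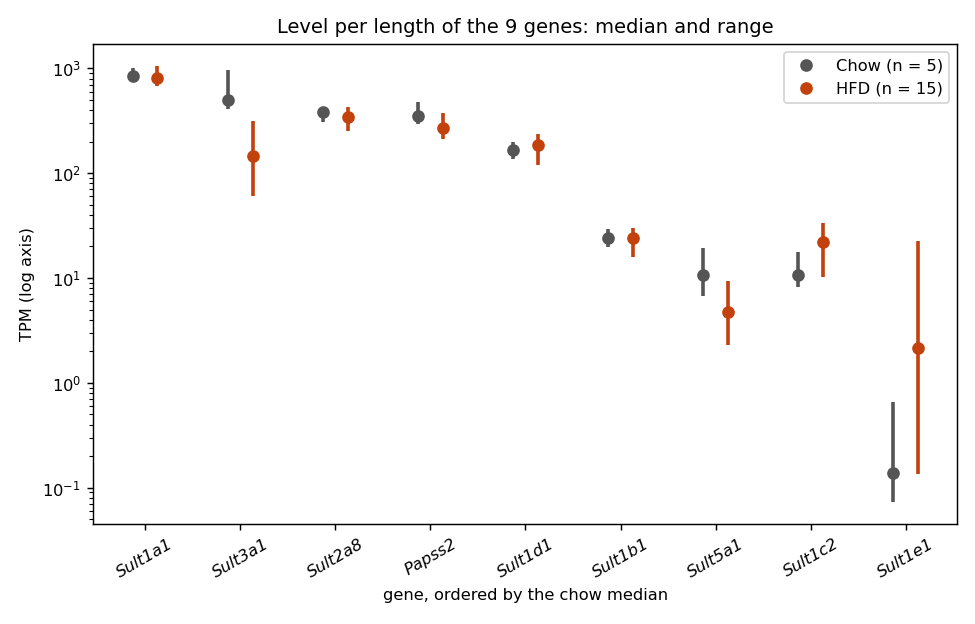
Level per gene length (TPM, log axis) of the 9 genes, ordered by their chow median; points are medians and lines run from the lowest to the highest mouse in chow (n = 5) and HFD (n = 15). Sult3a1 moves from a chow median of 504 to 145 and Sult1e1 from 0.137 to 2.17, while Sult1a1 and Sult1b1 stay at their place.

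The 3 HFD groups were then pooled and set against chow, as the study did. Log2 fold changes and standard errors (SE) come from edgeR, with positive values for higher counts in HFD. In this comparison 9.75% of the 17120 genes tested passed an adjusted p of 0.05 (4.54% higher and 5.21% lower in HFD). Among the 9 genes 4 did, with Sult1e1 and Sult1c2 higher and Sult3a1 and Sult5a1 lower. As this comparison entered their choice, that count is a description and nothing is read from it. In whole liver, fewer cells of a type and less RNA per cell cannot be told apart.

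Sult1e1 was close to undetected in chow. The chow mice 1, 2, 5, 7 and 10 had 0.0610, 0.0328, 0.331, 0.0636 and 0.192 CPM, from 2 to 19 counts per library. The fishmeal mice 12, 13, 14, 16 and 20 had 6.37, 0.725, 1.79, 0.595 and 2.67 CPM. All 5 were above every chow mouse. Of the salmon mice, mouse 22 had 0.215, mouse 23 had 0.0702, mouse 25 had 1.17, mouse 26 had 1.02, mouse 27 had 1.15 and mouse 31 had 0.598 CPM. Mice 22 and 23 lay within the chow range and the other 4 above it. The beef mice 32, 35, 39 and 40 had 11, 0.659, 0.394 and 1.42 CPM, all above chow. Within groups, the highest mouse had 10.1 times the level of the lowest in chow, 10.7 times with fishmeal and 16.7 times with salmon filet. With beef it was 27.9 times, where mouse 32 was the highest. Over all 15 HFD mice the ratio was 157, but this spans 3 diets and more mice than chow and is not comparable with 10.1.

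Counting error was small beside this spread in most HFD mice but not in chow. The 609 counts of beef mouse 32 have an exact Poisson 95% interval of 562 to 659, and the 2 counts of chow mouse 2 have one of 0.242 to 7.22. These intervals cover counting error only. The log2 fold change of Sult1e1 was 3.85 (SE 1.03), and 13 of 15 HFD mice were above every chow mouse. Without chow mouse 5, whose level was the highest in chow, the log2 fold change was 4.48, and without beef mouse 32 it was 3.29. By limma on log2(TPM + 1) the value was 1.43. No other gene shared a stretch of 100 bases or more at 90% identity with a Sult1e1 transcript.

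Sult1c2 was the other member with a higher level in HFD. The chow mice had 11.6, 6.88, 6.08, 12.3 and 7.57 CPM in the same order as above. The fishmeal mice had 24.3, 17.1, 17.5, 17.7 and 23.1 CPM, and all were above chow. The salmon mice had 13.0, 7.89, 22.1, 11.6, 13.4 and 11.8 CPM, of which 3 lay within the chow range. The beef mice had 18.6, 12.7, 16.0 and 13.2 CPM, above every chow mouse. The log2 fold change was 0.85 (SE 0.217), and between 0.74 and 0.99 when each mouse was left out in turn. A Sult1c2 pseudogene shares a stretch of 277 bases at 93.9% identity with this gene, so some reads may fit both.

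Sult3a1 was the member whose HFD and chow ranges were fully apart. The chow mice had 233, 211, 448, 178 and 228 CPM. The fishmeal mice had 48.4, 34.8, 107, 79.1 and 55.2 CPM, and the salmon mice had 25.6, 92.0, 32.7, 137, 91.3 and 64.8 CPM. The beef mice had 34.1, 132, 40.2 and 82.1 CPM. The highest HFD mouse, salmon mouse 26, was below the lowest chow mouse, and ranges did not overlap for 1.64% of all genes tested. The log2 fold change was −1.88 (SE 0.307), between −1.99 and −1.59 when each mouse was left out in turn. Within HFD the highest mouse had 5.36 times the level of the lowest. Sult3a1 and its neighbour Sult3a2 share 894 bases at 90.9% identity, so reads may have been divided between them.

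Sult5a1 was also lower in HFD, at a level far below that of Sult3a1. The chow mice had 19.1, 16.9, 34.8, 11.2 and 21.7 CPM. The fishmeal mice had 7.23, 7.08, 9.18, 4.15 and 6.87 CPM, all below chow. The salmon mice had 5.32, 17.4, 10.1, 11.8, 4.36 and 8.31 CPM, of which mice 23 and 26 lay within the chow range. The beef mice had 8.17, 12.9, 4.31 and 9.29 CPM, of which mouse 35 lay within it. The log2 fold change was −1.30 (SE 0.261), and 12 of 15 HFD mice were below every chow mouse. Chow mouse 5 had the highest level of both Sult3a1 and Sult5a1, and without it the log2 fold changes were −1.59 and −1.03. Stretches of up to 296 bases of a Sult5a1 transcript resemble 151 other genes, as a repeat does, and reads from there could not be assigned with certainty.

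The other 5 genes overlapped between the diets. Sult1a1 had 433 to 563 CPM in chow (median 512) and 425 to 678 in HFD (median 490), with a log2 difference of 0.03 (SE 0.103). Sult2a8 had 369 to 553 CPM in chow and 350 to 552 in HFD (log2 difference −0.05, SE 0.110). For Sult1b1 the ranges were 20.0 to 32.9 and 20.4 to 33.5 CPM (0.02, SE 0.105). For Sult1d1 they were 125 to 196 and 132 to 227 CPM (0.13, SE 0.127). The 2 chromosome 5 neighbours of Sult1e1 thus stayed within 0.13 of chow on the log2 scale. Papss2, the enzyme that supplies PAPS, had 439 to 716 CPM in chow and 294 to 554 in HFD, with 10 of 15 HFD mice below every chow mouse. Its log2 difference was −0.31 (SE 0.126). An unprocessed pseudogene, Gm6939, is identical to Sult1a1 over 127 bases but had no more than 45 counts in any library. Sult1a1 also shares 61 exon bases with Sgf29 on the other strand. Stretches of up to 181 bases of a Sult2a8 transcript resemble 144 other genes.

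**Figure D2:**
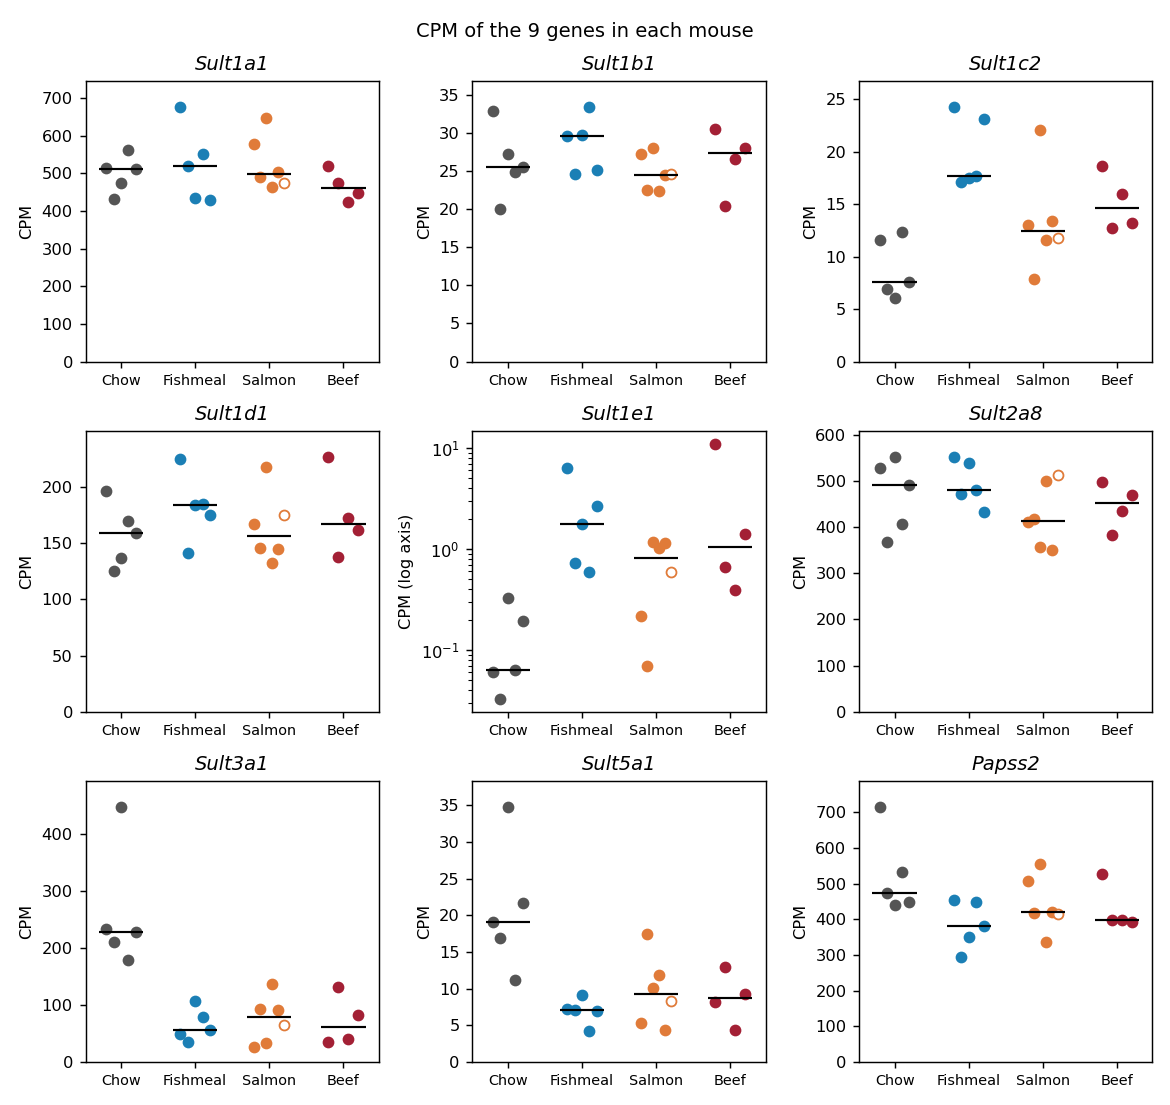
CPM of each gene in each mouse by diet group (Sult1e1 on a log axis); every point is a mouse, bars are group medians and the open point is mouse 31. All 15 HFD mice lie below the 5 chow mice for Sult3a1, 13 of 15 lie above them for Sult1e1, and beef mouse 32 is the highest Sult1e1 mouse with 11 CPM.

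The spread between mice differed between the genes. The spread of Sult1e1 entered the choice of the genes and is given as a description. Within HFD groups the standard deviation of log2 CPM was 1.60 for Sult1e1, and the median of 1807 protein coding genes within 2-fold of its mean CPM was 0.35. Sult3a1 had 0.84 where 1588 genes of like level had a median of 0.20, and Sult5a1 had 0.63 beside 0.21. Sult1c2 had 0.36 beside 0.20. Sult1a1 (0.21), Sult1b1 (0.19) and Sult2a8 (0.19) varied about as much as genes of like level, whose medians were 0.23, 0.19 and 0.22. The 4 genes with the widest spread within HFD also had the widest spread within chow, at 1.00 for Sult1e1, 0.59 for Sult5a1, 0.51 for Sult3a1 and 0.46 for Sult1c2.

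Each HFD group was next set against chow on its own. The 3 comparisons share the chow mice, so their values stand side by side only as a description. For Sult1e1 the log2 fold change was 4.12 (SE 0.749) with fishmeal, 2.36 (SE 0.689) with salmon filet and 4.61 (SE 1.01) with beef. Without beef mouse 32 the last value was 2.59. For Sult3a1 it was −2.0 (SE 0.318), −1.80 (SE 0.384) and −1.85 (SE 0.408), and no HFD group overlapped with chow. Without chow mouse 5 these values were −1.71, −1.52 and −1.55. Of all genes tested, 5.87% had ranges apart from chow in the fishmeal group, 5.0% in the salmon group and 8.37% in the beef group. For Sult5a1 it was −1.59 (SE 0.273), −1.11 (SE 0.335) and −1.27 (SE 0.339), and for Sult1c2 it was 1.2 (SE 0.20), 0.59 (SE 0.246) and 0.76 (SE 0.218). With mouse 31 counted as Beef, the values of Sult1e1 were 2.41 with salmon filet and 4.35 with beef.

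**Figure D3:**
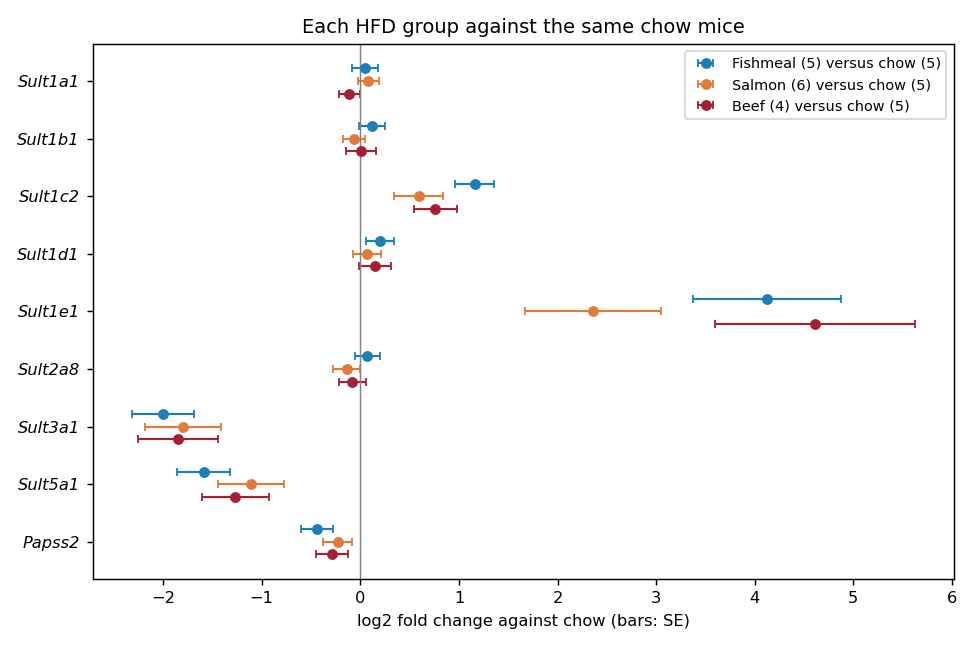
Log2 fold change of the 9 genes in each HFD group against the same 5 chow mice; points are edgeR estimates and bars are SE. Sult3a1 lies between −2.0 and −1.80 in all 3 groups, while Sult1e1 lies at 2.36 with salmon filet and at 4.12 and 4.61 with fishmeal and beef.

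Whether levels differed between the 3 HFDs is addressed by the pairs of HFD groups, which did not enter the choice of genes. The spread of Sult1e1 between mice did enter it, so the values of Sult1e1 in these pairs are a description. By the study's account, these diets differed in protein source and also in cholesterol, soybean oil and fatty acids. The effects of these ingredients cannot be told apart in the pairs. None of the 9 genes passed an adjusted p of 0.05 in any of the 3 pairs by edgeR, DESeq2 or limma. Few genes did in all, with 0.157% of 16548 genes for fishmeal versus salmon filet, 0.00607% of 16480 for fishmeal versus beef and 0 of 16509 for salmon filet versus beef. At an unadjusted p under 0.05 there were 2, 1 and 1 of the 9 genes in these pairs by edgeR. The share of all genes at that unadjusted threshold is not given here, so nothing is read from these counts.

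The genes with the lowest p were Sult1c2 and Sult1e1. Sult1c2 was 0.58 (SE 0.204) higher on the log2 scale with fishmeal than with salmon filet (edgeR adjusted p = 0.895), and all 5 fishmeal mice were above the salmon mean. It was 0.39 (SE 0.158) higher with fishmeal than with beef (edgeR adjusted p = 1.00). In both pairs the groups overlapped. Salmon mouse 25 with 22.1 CPM lay among the fishmeal mice, and so did beef mouse 32 with 18.6 CPM. Sult1e1 was 1.78 (SE 0.653) higher with fishmeal than with salmon filet (edgeR adjusted p = 0.977). For salmon filet versus beef it stood at −2.25 (SE 0.842) (edgeR adjusted p = 1.00). The latter value rested on beef mouse 32 and was −0.24 without it. Between fishmeal and beef the value was −0.49 (SE 0.904), and it turned to 1.54 without beef mouse 32.

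With mouse 31 counted as Beef or left out, again none of the 9 genes passed in any pair. Of all genes 0.17% then passed for fishmeal versus salmon filet under either choice, 0.0245% and 0.00607% for fishmeal versus beef, and 0 for salmon filet versus beef. Counted as Beef, it brought the Sult1e1 value for salmon filet versus beef to −1.94 (edgeR adjusted p = 0.922) and that of Sult1c2 for fishmeal versus beef to 0.46 (edgeR adjusted p = 0.999). Without mouse 31 as a salmon mouse, Sult2a8 was 0.27 (SE 0.119) higher with fishmeal than with salmon filet (edgeR adjusted p = 0.920). Sult3a1 and Sult5a1 were lower than in chow on all 3 HFDs. Between the diets, Sult3a1 differed by −0.19 (SE 0.393), −0.16 (SE 0.404) and 0.04 (SE 0.470) in the 3 pairs, and Sult5a1 by −0.47 (SE 0.309), −0.33 (SE 0.285) and 0.15 (SE 0.366). At these errors, differences of that size were not detectable.

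**Figure D4:**
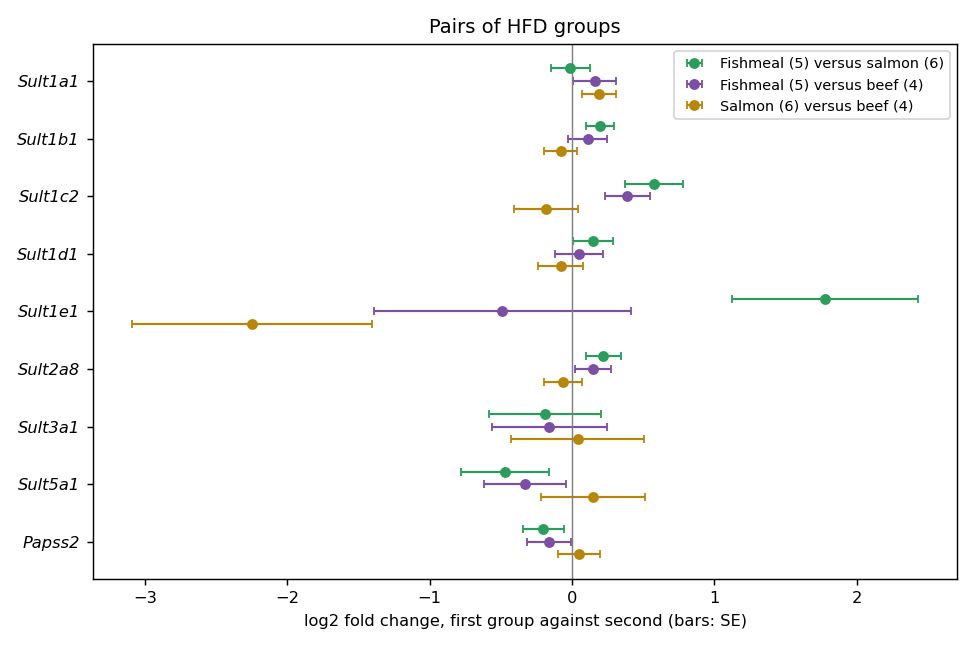
Log2 fold change of the 9 genes between pairs of HFD groups, first group against second; points are edgeR estimates and bars are SE. Sult1e1 has the widest bars and ranges from −2.25 (salmon filet versus beef) to 1.78 (fishmeal versus salmon filet), and no gene passed an adjusted p of 0.05.

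Whether the other 8 genes varied together with Sult1e1 was examined over the 15 HFD mice, after centring each gene on its diet group mean. None of 8 relations passed an adjusted p of 0.05 by permutation within diet groups. The closest was Sult1c2 with Pearson r = 0.66 (permutation p = 0.00693, adjusted p = 0.0554) and Spearman rho = 0.69 (permutation p = 0.0100, adjusted p = 0.0803). Without mice 23 and 32, the farthest from the median of Sult1e1, r was 0.51. It passed the threshold in 4 of 19 alternatives, which were without centring (r = 0.72), with mouse 31 counted as Beef (0.68), without salmon mouse 26 (0.70) and without beef mouse 39 (0.75). Its chromosome 5 neighbour Sult1d1 had r = 0.55 (permutation p = 0.0617, adjusted p = 0.247), and Sult1b1 had r = 0.31 (permutation p = 0.348, adjusted p = 0.541). Sult3a1 had r = −0.13 and Sult5a1 r = 0.00, with permutation p of 0.681 and 0.989.

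Over all 11556 protein coding genes with a mean of at least 1 CPM, the 10 whose levels followed Sult1e1 most closely in the same 15 mice are given as a description. Me1, which makes NADPH for fatty acid synthesis, had r = 0.88. Fitm1, a protein of lipid droplet formation, and Ghitm, a protein of the inner mitochondrial membrane, both had 0.84. Lama2, a laminin chain, had 0.88, Fkbp9, a chaperone of the endoplasmic reticulum, 0.87 and Pam, which amidates peptides, 0.85. The levels of 4 genes ran opposite to Sult1e1, namely Ndst2 with −0.93, Ccdc28b with −0.89, Srrt with −0.86 and Zfhx2 with −0.84. Ndst2 is itself a sulfotransferase, which acts on heparan sulfate in the Golgi. Without beef mouse 32 these values ranged from 0.76 to 0.85 and from −0.91 to −0.76. The 10 genes were picked for the largest r in these same mice, so this is no separate check. Among so many genes some high values are bound to occur.

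Of 13 genes of the circadian clock, 7 were higher and 2 lower in HFD than in chow at an edgeR adjusted p under 0.05. The shares of all genes were 4.54% and 5.21%. This list was chosen with earlier results of these data known, so the count is a description. Nr1d2, Dbp and Tef passed with each mouse left out in turn, and Per2 and Per3 did so except without chow mouse 7. Ciart passed in 16, Clock in 13, Cry1 in 8 and Nr1d1 in 6 of 20 such fits, and the Nr1d1 value ranged from 1.41 to 2.89. Per3 and Ciart did not pass by limma on log2(TPM + 1). A contrast of 6 clock genes that peak towards the end of the light phase (Nr1d1, Nr1d2, Dbp, Tef, Per3, Ciart) minus 3 that peak near the opposite time (Arntl, Npas2, Clock) was −3.46 to −1.27 log2 units in chow and −2.46 to 4.01 in HFD. It therefore moved with the same comparison as the 4 sulfotransferases described above, and its part in their levels against chow was not tested. Within the 15 HFD mice none of 9 relations with this contrast passed an adjusted p of 0.05 by permutation. Sult2a8 had the closest with r = −0.47 and rho = −0.41 (permutation p = 0.110 and 0.163, adjusted p = 0.958 and 0.733). Sult1e1 had r = −0.03 and Sult3a1 r = 0.13 (permutation p = 0.906 and 0.672). Without salmon mouse 25 and beef mouse 40, the farthest from the median contrast, Sult1a1 moved from r = −0.20 to −0.59.

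The genes around these enzymes were taken from lists of related genes, which were chosen with earlier results of these data known. The counts of listed genes that passed are therefore a description. Of 13 other cytosolic sulfotransferases 7 were tested, and the rest had too few counts. Sult2a3, of the hydroxysteroid subfamily, rose by 2.54 on the log2 scale (SE 0.773, edgeR adjusted p = 0.0386), and did not pass without chow mouse 1, 2 or 5, fishmeal mouse 20 or salmon mouse 25 (2.23 to 3.04). Sult3a2, the neighbour of Sult3a1, stood at −1.99 on the log2 scale (SE 0.412, edgeR adjusted p = 0.00344) with means of 5.26 CPM in HFD and 20.8 in chow. Without chow mouse 5, which was also the highest for Sult3a1, it was −1.36 and still passed. Sult2a1, Sult2a2, Sult2a4 and Sult2a5 did not pass, with values of 0.15 to 1.82. These Sult2a genes are 93.1% to 98.5% identical over long stretches, and their separate counts are uncertain. The Sult2a7 value was 1.5 (SE 0.525, adjusted p = 0.0714).

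Of 8 genes tested that supply PAPS or remove PAP, 2 rose, beside 4.54% of all genes. These were the sulfate carriers Slc26a1 (0.31, SE 0.0959, adjusted p = 0.0442) and Slc13a4 (1.4, SE 0.401, adjusted p = 0.0282). Slc13a4 stood at means of only 0.714 and 0.267 CPM in HFD and chow. Slc26a1 passed in 11 and Slc13a4 in 16 of 20 fits that left out 1 mouse. The other PAPS synthase, Papss1, had means of 13.2 and 11.6 CPM (0.18, SE 0.0967, adjusted p = 0.261). In the list of sulfate formation from cysteine, 2 of 8 genes fell, beside 5.21% of all genes, and none rose. Of the 2, Csad leads to taurine and not to sulfate. Csad had 288 ± 89.0 CPM in chow (SD, n = 5) and 47.2 ± 25.5 in HFD (SD, n = 15), with −2.61 on the log2 scale (SE 0.318, adjusted p = 1.67e-05). Ethe1, which oxidises persulfides, had −0.72 (SE 0.184, adjusted p = 0.0155), and did not pass without chow mouse 1, 2 or 7 (−0.85 to −0.64 over all mice left out). Suox, which makes sulfate itself, had 0.19 (SE 0.103, adjusted p = 0.267).

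Of all genes tested, 4.54% rose and 5.21% fell, which is the background for the lists that follow. Of 11 genes tested for the removal of sulfate, 3 rose and none fell. Among them, Arsg rose by 0.52 (SE 0.129) and Sulf2 by 0.49 (SE 0.124) on the log2 scale, with edgeR adjusted p of 0.0131 and 0.0141. Arsg did not pass without chow mouse 1 or 7. Both act on glycosaminoglycans and not on small molecules. Of 19 Golgi sulfotransferases, Hs3st3b1 (−0.34, not without chow mouse 5) and Chst3 (−1.33) fell and none rose. Chst3 stood at means of only 0.34 and 0.852 CPM in HFD and chow. A list of 17 genes held enzymes that conjugate or convert the same substrates, and the estrogen receptor Esr1. Of these genes, Hsd3b2 rose by 0.60, and Hsd17b2 (−0.39) and Hsd3b5 (−2.29) fell. Without 1 of the chow mice each of these calls was lost, for Hsd3b2 with mouse 2, 5, 7 or 10 left out, for Hsd17b2 with mouse 5 or 7 and for Hsd3b5 with mouse 1 (log2 fold change then −1.4). Hsd3b5 stood at means of only 0.147 and 0.721 CPM in HFD and chow, and is also counted among the male-predominant genes below. None of the 8 glucuronosyltransferases on this list passed, with values from −0.53 to 0.07.

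Many sulfotransferases of mouse liver are female-predominant, and 18 other female-predominant genes went in both directions. Of these, 4 rose, among them Cyp2b13 (0.99, SE 0.168) and Hao2 (1.56, SE 0.286), and 3 fell. Of 9 male-predominant genes tested, 4 fell, among them the organic anion carrier Slco1a1 (−3.78, SE 0.746), and none rose. Of 17 targets of the receptors CAR and PXR, which respond to foreign compounds, 9 fell and none rose. Cyp2b10 had 35.3 ± 20.1 CPM in chow (SD, n = 5) and 1.99 ± 1.37 in HFD (SD, n = 15), with −4.14 on the log2 scale (SE 0.365, edgeR adjusted p = 2.57e-07). Cyp3a11 had −0.85 and Ces2a −0.89. Over all lists but the clock genes, 11 of 109 genes tested rose and 21 fell, beside 4.54% and 5.21% of all genes. The median log2 fold change of these genes was −0.02 and that of all genes tested 0.00. Of the 32 genes that rose or fell, 16 passed with each mouse left out in turn.

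**Figure D5:**
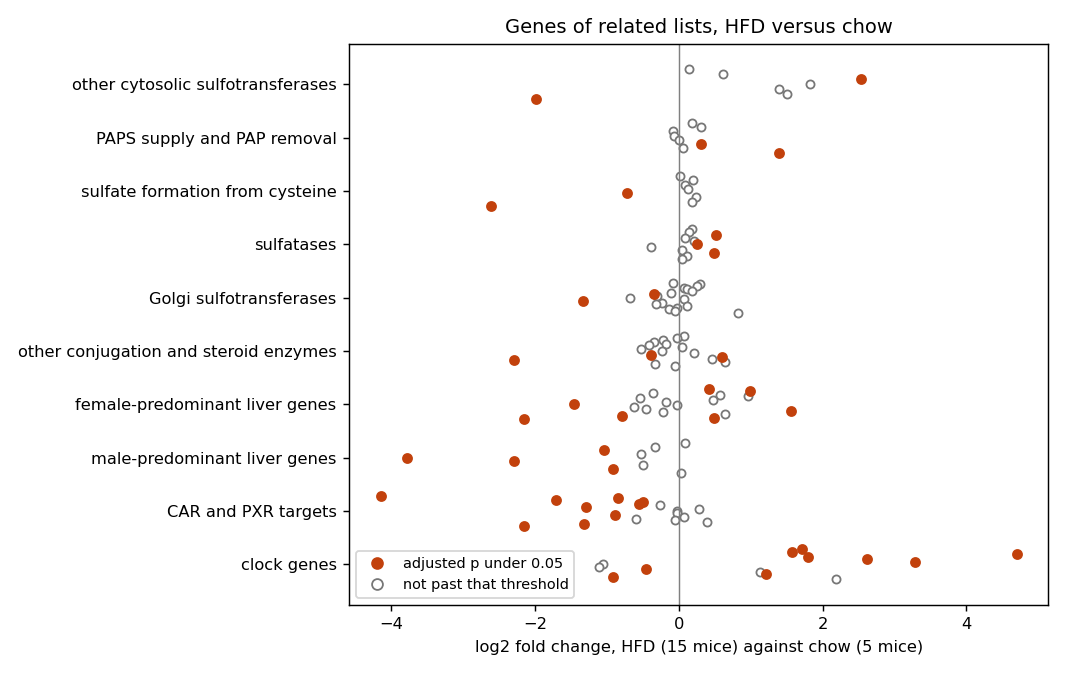
Log2 fold change, HFD (15 mice) against chow (5 mice), of every tested gene in the lists of related genes; each point is a gene and filled points passed an adjusted p of 0.05 by edgeR. CAR and PXR targets lie mostly below 0 (9 of 17 fell, none rose), while female-predominant genes lie on both sides.

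Markers of other cell types also moved between the diets. The 5 genes of B and plasma cells summed to 7.56 to 44.7 CPM in chow and 2.84 to 7.05 in HFD, and all 5 fell. The 7 T cell genes summed to 3.97 to 6.22 CPM and 1.73 to 4.75, and 3 fell. The 5 exocrine pancreas genes summed to 8.57 to 10.8 CPM in chow and 10.7 to 25.9 in HFD, and 1 rose. The 4 genes of kidney and gut epithelium summed to 32.7 to 68.6 and 73.3 to 145 CPM, of which 1 rose and 1 was at 0 in all libraries. Their part in the levels of the sulfotransferases was not tested. The summed levels of macrophage, neutrophil, endothelial, bile duct, stellate cell, adipocyte and red blood cell markers overlapped between the diets, although 1 endothelial and 1 bile duct gene fell and 1 red blood cell gene rose.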

How the data were processed

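Liver RNA of 20 mice was sequenced after a strand-specific mRNA preparation, with 1 library per mouse. Reads were trimmed (BBDuk), aligned (HISAT2) and assigned to genes (featureCounts) by the authors (versions 1.2.1 and 1.4.6-p1 in the submitters' processing notes). The deposited raw counts per gene are not normalised, and a second deposited table holds TPM, which the authors scaled to gene length and to a sum of 1e+06 per library. How strand and reads that fit several genes were counted is not given in the sources used here. The sources print GRCh38 for the mouse genome. The gene identifiers match GENCODE M21 on GRCm38, and positions are given on that build.

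The counts were tested with edgeR 4.0 in R 4.3 (TMM factors, filterByExpr with a minimum count of 10, two-sided quasi-likelihood F-tests, Benjamini-Hochberg adjustment over all genes tested, threshold 0.05). CPM used TMM factors over all libraries, with a prior count of 2 on the log2 scale. Each comparison used only its own groups. Total counts ranged from 42526234 to 70266136 per library. The 41 pairs of libraries within groups had a chi-square of 35.1 to 457 per gene, so none was a duplicate. Relations between genes used 100000 permutations within diet groups. Similar transcripts were searched with blastn 2.17 at 90% identity over at least 100 bases, and promoter windows were read from RefSeq. Alternatives were DESeq2 1.42, RLE or upper quartile factors, other count filters, limma 3.58 on log2(TPM + 1), 1 fit on all 4 groups, mouse 31 counted as Beef or left out, and each mouse left out in turn. The main edgeR fit of each comparison was also tested on simulated data, in which 200 genes had known changes. The changed genes were drawn from genes with more counts than Sult1e1 had in chow, and the alternative fits were not simulated.

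The 9 genes, the lists of related genes and the alternatives were chosen with earlier results of these data known. The alternatives for each HFD group against chow were added after seeing the data. Genes are named if they are among the 9, if they are on 10 lists of related genes (with every gene that passed or a member described by its role), or if they are among the 10 protein coding genes with the largest absolute r with Sult1e1. Some listed genes that passed are counted but not reported here by name. Of the listed genes, Sts and the hepatocyte marker Tf were not matched.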

Additional observations from a re-analysis of the deposited data

Results flagged for a closer look

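Of the 36 sets of values (9 genes in 4 groups) 3 held a mouse that stood far from the others of its group by Dixon's criterion at 95%, and chance alone flags about 1 set in 20. Sult1e1 was 11 CPM in beef mouse 32 and 0.394 to 1.42 in the other beef mice, with a gap of 0.903 of the range beside a critical value of 0.829. Papss2 was 527 CPM in the same beef mouse and 393 to 399 in the others (0.958 of the range). Sult3a1 was 448 CPM in chow mouse 5 and 178 to 233 in the other chow mice (0.799 of the range, critical value 0.710). The spread of Sult1e1 entered the choice of the genes, so its value here and the count of 3 are a description. No sample was removed for these values.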

How the results depend on the processing

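Over 27 alternatives for HFD versus chow, between 2 and 4 of the 9 genes passed the threshold, and the lowest count of 2 was reached without chow mouse 2, where Sult1e1 and Sult1c2 did not pass. Sult1e1 also did not pass without chow mouse 1 or 7 or by limma on log2(TPM + 1). With mice left out in turn the range was 2 to 4. No gene passed in any alternative for the pairs of HFD groups, and none of the relations with the clock contrast did. Of the 8 relations with Sult1e1, 0 passed in the main analysis and 1 (Sult1c2) without centring or with mouse 31 counted as Beef. With mice left out in turn this number was 0 to 1, with 1 reached without salmon mouse 26 or beef mouse 39. The Sult1e1 difference between fishmeal and beef, −0.49 on the log2 scale, was 0.10 by limma on log2(TPM + 1) and ranged from −1.24 (without fishmeal mouse 12) to 1.54 (without beef mouse 32) with mice left out in turn. By limma, whose pseudocount of 1 compresses low levels, Sult1e1 was 1.43 in HFD versus chow. The number of related genes that passed stayed between 22 and 37, beside 32. With at least 10 counts required in every library, Sult1e1 could not be tested against chow. At 2 to 19 counts in chow, its fold change is set by few reads. No paired analysis was possible because the labels number the mice across groups and give no shared replicate number.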

Other observations

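Sult2a1, Sult2a2, Sult2a3 and Sult2a5, hydroxysteroid sulfotransferases that were not among the 9 genes, varied widely between mice. Sult2a2 ranged from 53.5 to 336 CPM in HFD and from 49.0 to 200 in chow, and Sult2a1 from 14.9 to 224 in HFD and 28.2 to 187 in chow. In HFD, fishmeal mouse 14, salmon mice 23 and 26 and beef mice 35 and 40 had 53.5 to 102 CPM of Sult2a2, and the other HFD mice had 199 to 336. Chow was split as well, with 49.0 and 80.4 CPM in mice 1 and 2 and 167 to 200 in the other chow mice. As the mice fell apart in this way, no correlation over all of them was computed. These genes share long stretches of sequence, as given above, and their separate counts are uncertain.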
